A study of Homo sapiens with 4 samples.

Results

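A set of 39 genes that carry out DNA replication or supply its nucleotides was examined in RNA sequencing data of HeyC2 and SKOV3 cells, established lines of human ovarian cancer. The members were taken by symbol from a written list, which applies no threshold to their values but was drawn up with earlier results of these data known, and all 39 were found among the 26506 genes of each table. Each line was transfected with a plasmid carrying full-length TET1 under a CMV promoter (pCMV6/TET1) or with the empty plasmid, and both were kept under Geneticin, so that controls and TET1-reprogrammed cells share the transfection and the selection. TET1 is an enzyme that oxidises 5-methylcytosine and so starts DNA demethylation. With 1 library per condition, 4 in all, no difference has a replicate check, no p-value can be given, and a clone or culture effect and the effect of TET1 cannot be told apart. Whether the selected cells were single clones or pools is not given in the sources used here.

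DNA replication begins when the origin recognition complex, CDC6 and CDT1 load the ring-shaped MCM2 to MCM7 helicase onto DNA in G1, a step called licensing, which geminin (GMNN) blocks later in the cycle. In S phase, CDC45 and the GINS complex turn the helicase on, with MCM10 assisting. DNA polymerase alpha and primase lay down primers, polymerases epsilon and delta extend them on the PCNA clamp, which the RFC complex loads, and FEN1 and LIG1 process and seal the lagging strand. Ribonucleotide reductase (RRM1 and RRM2), thymidylate synthase (TYMS) and thymidine kinase (TK1) supply the deoxynucleotides. Most of these genes are known targets of E2F transcription factors, which switch them on as cells enter S phase, and in tumour cell lines their RNA is commonly high where many cells are cycling. In bulk RNA, fewer cells in S phase and less RNA per cell cannot be told apart.

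The deposited values were FPKM, fragment numbers scaled to transcript length and library size, so that levels of different genes can be compared. The values of each TET1 library had been multiplied by 1 factor that made GAPDH equal to its control, 3.23 in HeyC2 and 1.35 in SKOV3. This factor was divided out here, which left GAPDH at 1675 FPKM in HeyC2 TET1 against 5417 in its control and at 1671 in SKOV3 TET1 against 2248. Changes are log2((TET1 + 1)/(control + 1)) minus the median of all genes with a mean of at least 1 FPKM in the line. That median was 0.06 over 11894 genes in HeyC2 and 0.19 over 13013 genes in SKOV3, and a gene was called higher or lower when it differed from it by at least 1.5-fold. The libraries held an estimated 6580000 to 7320000 fragments. TET1 itself was at 0.20 FPKM in the HeyC2 control and 0.52 in HeyC2 TET1, and at 0.43 and 1.80 in SKOV3, a low level in all 4 libraries.

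Of the 9 markers listed for epithelial ovarian cancer lines, between 5 and 7 reached 1 FPKM in each library. KRT8, KRT18 and PAX8 were high in all 4 libraries, whereas WT1 and MUC16 were at or near 0 and EPCAM was below 1 FPKM in HeyC2. The keratin KRT19 was at 255 FPKM in the SKOV3 control and at 0.46 after TET1, and at 0.62 and 1.59 in HeyC2 control and TET1. The summed level of 5 fibroblast markers went from 0.91 to 32.5 FPKM in SKOV3, with COL1A1 going from 0.32 to 27.7, LUM from 0.51 to 4.32 and COL3A1 from 0 to 0.56, while DCN went from 0.08 to 0 and PDGFRB was at 0 in both, and from 2.11 to 2.88 in HeyC2. The 3 endothelial markers summed to 19.4 and 94.8 FPKM in HeyC2 control and TET1, carried by CDH5, and to 0.26 and 0.36 in SKOV3. The 5 leukocyte markers summed to between 1.51 and 3.17 FPKM, with CD3E at 0 in all 4 libraries. The part of these shifts in the results below was not tested.

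The replication and nucleotide supply genes fell together in SKOV3 and did not move together in HeyC2. In SKOV3 the median relative change of the 39 members was -1.31 on the log2 scale, 2.48-fold lower in TET1 than in control, with quartiles of -1.55 and -1.13. Of the 39, 35 fell by at least 1.5-fold, a call made for 18.2% of all genes tested in SKOV3, and 0 rose, a call made for 20.7%. All 39 lay below the all-gene median, where 50% of genes lie by construction. In HeyC2, 37 members passed the filter and their median was 0.10 (-0.07 where the deposited values were centred without dividing the factor out), with quartiles of -0.17 and 0.17. In this line 2 members fell, where 9.17% of all genes did, and 4 rose, where 12.5% did, and 15 of 37 lay below the all-gene median against 50% by construction. The HeyC2 counts are close to the background and the SKOV3 count is not. On the deposited values with no centring, each TET1 value carries its factor. This is 1.69 on the log2 scale in HeyC2 and 0.43 in SKOV3, less for weak genes because of the pseudocount. There the HeyC2 counts became 38 higher and 0 lower, with 39 members past the filter, and 25 members were lower in SKOV3. The shares of all genes called on that scale were not computed, so these counts have no background beside them.

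With the GAPDH factor divided out, the summed level of the 39 members gave the same picture without any centring. The sums were not made on the deposited scale. It was 477 FPKM in the HeyC2 control and 521 in HeyC2 TET1, a ratio of 1.09. Most of that gain lay in PCNA, the highest member, which went from 57.1 to 97.3 FPKM. In the corresponding SKOV3 libraries the sum was 2162 and 982, a ratio of 0.454. All 39 members had a lower FPKM in SKOV3 TET1 than in the SKOV3 control, whereas in HeyC2 16 were lower and 23 higher in TET1. Counting error, estimated from the fragments behind each gene, had a median of 0.17 log2 units per member in HeyC2 and 0.10 in SKOV3. The change lay within 1.96 counting errors of 0 for 27 members in HeyC2 and for 1 in SKOV3. These errors are approximate and cover counting only, not differences between cultures.

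The starting levels of the lines also differed. Each of the 39 members was higher in the SKOV3 control than in the HeyC2 control, with FPKM ratios from 2.15 (MCM5) to 20.6 (GINS2) and a median of 5.59. Relative to the median of all genes, 39 of 39 were at least 1.5-fold higher in the SKOV3 control, a call made for 28.6% of the 12488 genes tested, and the median was 4.13-fold. The filter was the mean of both controls, which MCM10 and POLE2, below 1 FPKM in HeyC2, passed only through SKOV3. Among genes past the filter in both lines, 37 of 37 members were higher, beside 2699 of 11134 genes. In the TET1 libraries the same ratio had a median of 2.48 and ran from 1.05 (POLA2) to 5.99 (CDC45), still above 1 for all 39. The summed level was 4.53 times higher in SKOV3 than in HeyC2 between the controls and 1.88 times higher between the TET1 libraries. POLE2, a small subunit of polymerase epsilon, was the lowest and PCNA the highest member in every library. The 2 tables were made separately, so these ratios between lines rest on FPKM alone.

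**Figure D1:**
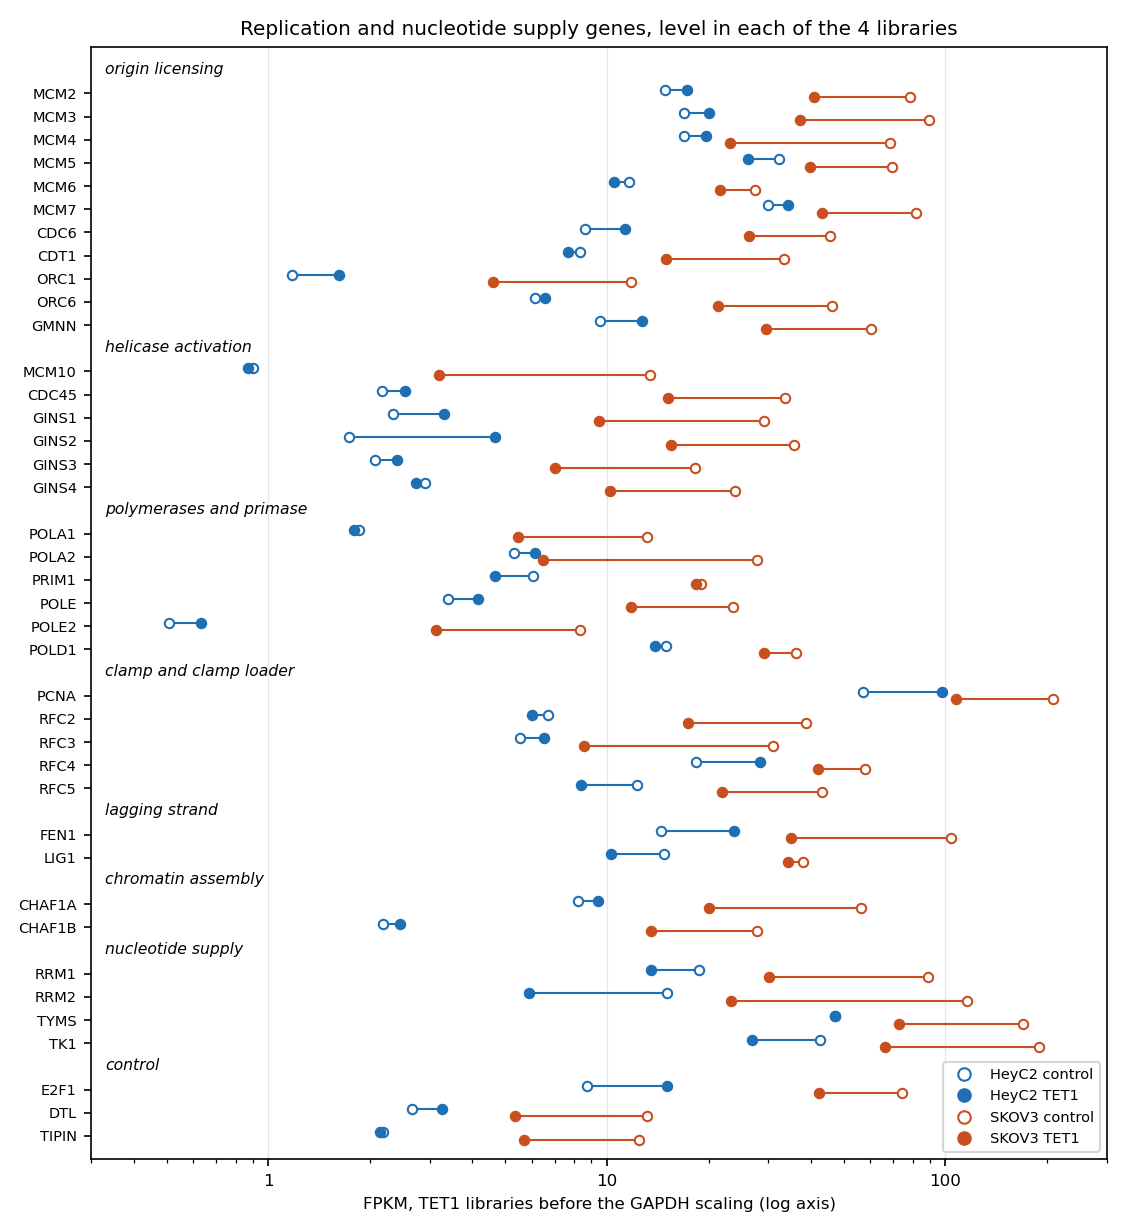
FPKM of each of the 39 members on a log axis in HeyC2 (blue) and SKOV3 (orange), with open circles for control and filled circles for TET1 before the GAPDH scaling, grouped by role. In SKOV3 every filled circle lies to the left of its open circle, while in HeyC2 they lie on both sides.

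Origin licensing genes were 11 of the members. Their median change was 0.15 in HeyC2, with 0 of 11 called lower, and -1.20 in SKOV3, with 10 of 11 called lower. Beside these and the counts by role below, 9.17% of all genes were called lower in HeyC2 and 18.2% in SKOV3. For so few genes, 0 of 11 in HeyC2 is close to that share. The helicase subunits MCM2 to MCM7 summed to 123 FPKM in the HeyC2 control and 128 in HeyC2 TET1, and to 415 and 206 in SKOV3. MCM2 was at 14.9 FPKM in the HeyC2 control and 17.3 in TET1, and at 78.5 and 40.8 in SKOV3, where it fell by 1.12. MCM3 was at 16.9 and 19.98 FPKM in HeyC2 and at 89.6 and 37.1 in SKOV3, where it fell by 1.44. MCM4 had the largest drop of the ring, from 68.4 to 23.0 FPKM in SKOV3 (-1.72), beside 16.9 and 19.7 in HeyC2. Since these subunits form one ring in equal numbers, their RNA levels can be set beside each other. MCM5 was at 32.3 and 26.1 FPKM in HeyC2 and at 69.4 and 39.9 in SKOV3 (-0.98). MCM6 was the lowest of the ring in every library, at 11.6 and 10.5 FPKM in HeyC2 and at 27.3 and 21.6 in SKOV3, a change of -0.52 that was under the 1.5-fold call. MCM7 was at 30.0 and 34.3 FPKM in HeyC2 and at 81.7 and 43.3 in SKOV3 (-1.09). The spread within the ring, highest over lowest, was 2.77 and 3.26 in HeyC2 control and TET1 and 3.28 and 2.01 in SKOV3.

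The loading factors behaved like the ring. CDC6, the ATPase that brings the helicase to the origin, was at 8.64 and 11.3 FPKM in HeyC2 and fell from 45.6 to 26.2 in SKOV3 (-0.97). CDT1, its partner in loading, was at 8.32 and 7.65 FPKM in HeyC2 and fell from 33.4 to 14.9 in SKOV3 (-1.30). GMNN, the inhibitor of CDT1, was at 9.54 and 12.7 FPKM in HeyC2 and fell from 60.4 to 29.5 in SKOV3 (-1.20). The ratio of CDT1 to GMNN was therefore 0.872 and 0.603 in HeyC2 control and TET1 and 0.553 and 0.505 in SKOV3. Of the origin recognition subunits, ORC1 was at 1.17 and 1.62 FPKM in HeyC2 and fell from 11.8 to 4.61 in SKOV3 (-1.38). ORC6 was at 6.12 and 6.54 FPKM in HeyC2 and fell from 46.3 to 21.2 in SKOV3 (-1.28).

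The 6 genes of helicase activation were weak in HeyC2 and fell without exception in SKOV3, with a median of -1.40 and 6 of 6 called lower. MCM10 did not reach a mean of 1 FPKM in HeyC2, at 0.90 and 0.87, and went from 13.4 to 3.19 FPKM in SKOV3, where its change of -1.98 was the third lowest of all members. CDC45 was at 2.16 and 2.53 FPKM in HeyC2 and at 33.5 and 15.2 in SKOV3 (-1.29). The 4 GINS subunits form one tetramer. GINS1 was at 2.34 and 3.31 FPKM in HeyC2 and at 29.2 and 9.48 in SKOV3 (-1.72). GINS3 was at 2.06 and 2.39 FPKM in HeyC2 and at 18.2 and 7.0 in SKOV3 (-1.45). GINS4 was at 2.91 and 2.73 FPKM in HeyC2 and at 24.0 and 10.2 in SKOV3 (-1.35). GINS2 (chr16:85709804-85723679, minus strand, GRCh37) differed from its partners in HeyC2. It went from 1.73 to 4.68 FPKM there, a rise of 1.0 on the log2 scale that rests on an estimated 31 and 77 fragments (counting error 0.31), and fell from 35.6 to 15.5 FPKM in SKOV3 (-1.34). GINS2 was the lowest GINS subunit in the HeyC2 control and the highest in the other 3 libraries.

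Among the polymerase and primase genes, in SKOV3 4 of 6 were called lower, with a median of -1.23, and in HeyC2 the 5 that passed the filter had a median of -0.09. POLA2, the regulatory subunit of polymerase alpha (chr11:65029384-65073430, plus strand, GRCh37), was at 5.30 and 6.14 FPKM in HeyC2 and fell from 27.7 to 6.47 in SKOV3 (-2.13), the second lowest change of the 39. POLA1, the catalytic subunit, was at 1.85 and 1.79 FPKM in HeyC2 and fell from 13.2 to 5.47 in SKOV3 (-1.32). PRIM1, the primase subunit that works in the same complex, was at 6.05 and 4.68 FPKM in HeyC2 (-0.37) and at 19.0 and 18.4 in SKOV3 (-0.24), the smallest change of any member in SKOV3 and the one within counting error. The ratio of POLA2 to PRIM1 went from 0.876 to 1.31 in HeyC2 and from 1.46 to 0.352 in SKOV3. Among the replicative polymerases, POLE was at 3.39 and 4.15 FPKM in HeyC2 and fell from 23.6 to 11.8 in SKOV3 (-1.13). POLE2 was at 0.51 and 0.63 FPKM in HeyC2, under the filter with an estimated 6 fragments in each library, and fell from 8.32 to 3.12 in SKOV3 (-1.37). POLD1, the catalytic subunit of polymerase delta, was at 14.9 and 13.9 FPKM in HeyC2 and at 36.3 and 29.1 in SKOV3 (-0.50), under the 1.5-fold call.

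PCNA and its loader fell in SKOV3 in 5 of 5 cases, with a median of -1.14. PCNA, the sliding clamp (chr20:5095599-5107272, minus strand, GRCh37), rose in HeyC2 from 57.1 to 97.3 FPKM (0.70, counting error 0.09) and fell in SKOV3 from 208 to 107 (-1.14). After these opposite moves the TET1 libraries of the lines were nearly level for PCNA, with SKOV3 1.10 times above HeyC2, against 3.65 times between the controls. RFC2 was at 6.71 and 5.99 FPKM in HeyC2 and at 38.7 and 17.3 in SKOV3 (-1.31). RFC3 was at 5.53 and 6.51 FPKM in HeyC2 and at 30.9 and 8.56 in SKOV3 (-1.93), the largest drop of the loader subunits. RFC4 went the other way from RFC5 in HeyC2, though neither change reached 1.5-fold. RFC4 was at 18.3 and 28.3 FPKM in HeyC2 (0.55) and at 57.9 and 41.9 in SKOV3 (-0.65), just inside the call and outside it with no centring. RFC5 was at 12.3 and 8.4 FPKM in HeyC2 (-0.56) and at 43.2 and 21.9 in SKOV3 (-1.14). RFC4 was the highest of these loader subunits in all 4 libraries.

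The lagging strand enzymes FEN1 and LIG1 parted in both lines. FEN1, the nuclease that trims RNA primers, rose from 14.4 to 23.7 FPKM in HeyC2 (0.62) and fell from 104 to 34.9 in SKOV3 (-1.74). LIG1, the ligase that seals the fragments, was at 14.7 and 10.3 FPKM in HeyC2 (-0.53) and at 37.9 and 34.2 in SKOV3 (-0.34), and was called in neither line. The ratio of FEN1 to LIG1 went from 0.983 to 2.30 in HeyC2 and from 2.74 to 1.02 in SKOV3. CHAF1A and CHAF1B encode the large and middle subunits of chromatin assembly factor 1, which places histones on new DNA. CHAF1A was at 8.23 and 9.38 FPKM in HeyC2 and fell from 56.5 to 20.01 in SKOV3 (-1.64). CHAF1B was at 2.18 and 2.45 FPKM in HeyC2 and fell from 27.7 to 13.5 in SKOV3 (-1.18).

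Both members that fell in HeyC2 were nucleotide supply genes, and the 4 genes of this group had the lowest medians of any role, -0.60 in HeyC2 and -1.70 in SKOV3. RRM2, the regulated small subunit of ribonucleotide reductase, fell in HeyC2 from 15.0 to 5.90 FPKM, 2.41-fold (-1.27), and in SKOV3 from 116 to 23.3, 5.51-fold (-2.46). It had the lowest change of all members in both lines. TK1, the salvage enzyme for thymidine, fell in HeyC2 from 42.6 to 26.8 FPKM (-0.71) and in SKOV3 from 189 to 66.4 (-1.69). RRM2 and TK1 were the 2 members lower in both lines, a pattern found in 2.54% of 11134 genes tested in both. On the deposited values with no centring both were higher in HeyC2 TET1, by 0.33 and 1.01. RRM1, the large reductase subunit, was at 18.6 and 13.5 FPKM in HeyC2 (-0.49), under the call, and fell from 88.5 to 30.1 in SKOV3 (-1.72). TYMS, which makes thymidylate, was at 47.1 FPKM in both HeyC2 libraries (-0.06) and fell from 169 to 72.8 in SKOV3 (-1.40). Reductase pairs RRM1 with either RRM2 or RRM2B, the subunit used outside S phase. The ratio of RRM2 to RRM1 went from 0.805 to 0.437 in HeyC2 and from 1.31 to 0.774 in SKOV3. The ratio of RRM2 to RRM2B, which is no member, went from 0.162 to 0.041 in HeyC2 and from 13.1 to 2.00 in SKOV3, so RRM2B was above RRM2 in both HeyC2 libraries and below it in both SKOV3 libraries.

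The remaining 3 members control the process. E2F1, the transcription factor that drives S phase genes, rose in HeyC2 from 8.71 to 15.0 FPKM (0.66, or 0.55 after correction for GC content and transcript length, under the call) and fell in SKOV3 from 74.5 to 42.2 (-1.0). DTL, which guides the destruction of CDT1 on replicating DNA, was at 2.66 and 3.26 FPKM in HeyC2 and fell from 13.1 to 5.36 in SKOV3 (-1.34). TIPIN, a fork protection factor, was at 2.18 and 2.13 FPKM in HeyC2 and fell from 12.4 to 5.68 in SKOV3 (-1.20). Reads of pseudogene copies, which PCNA and RRM2 have, may be shared with these genes. So may reads of ENOSF1, which overlaps the end of TYMS on the opposite strand. Genes were quantified with RSEM, but the sources used here give neither the gene annotation nor whether strand was used.

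Set side by side, the changes in the lines differed for most members. The SKOV3 change minus the HeyC2 change had a median of -1.27 over the 37 members that passed in both lines. It was below 0 for 35 of them, the exceptions being LIG1 (0.19) and PRIM1 (0.13). For 32 of 37 it was lower by at least 1.5-fold, against 22.5% of all genes. The 4 members that rose in HeyC2 and fell in SKOV3 were GINS2, PCNA, FEN1 and E2F1, a pattern found in 1.77% of all genes. They are the only members called higher in HeyC2, 4 of 37, which is close to the 12.5% of all genes called higher there. In SKOV3, 35 of 39 members were called lower. With 1 library per condition the difference between the lines could not be tested. Across the 39 members the changes in the lines had a Pearson r of 0.10 and a Spearman rho of -0.04. These include MCM10 and POLE2, which did not pass the filter in HeyC2. Over the 11134 genes past the filter in both lines the values were also low, at 0.14 and 0.15. They are given as a description of genes measured in the same libraries. In SKOV3 the change also showed little relation to the control level, with a Spearman rho of -0.03 between the control FPKM and the change.

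**Figure D2:**
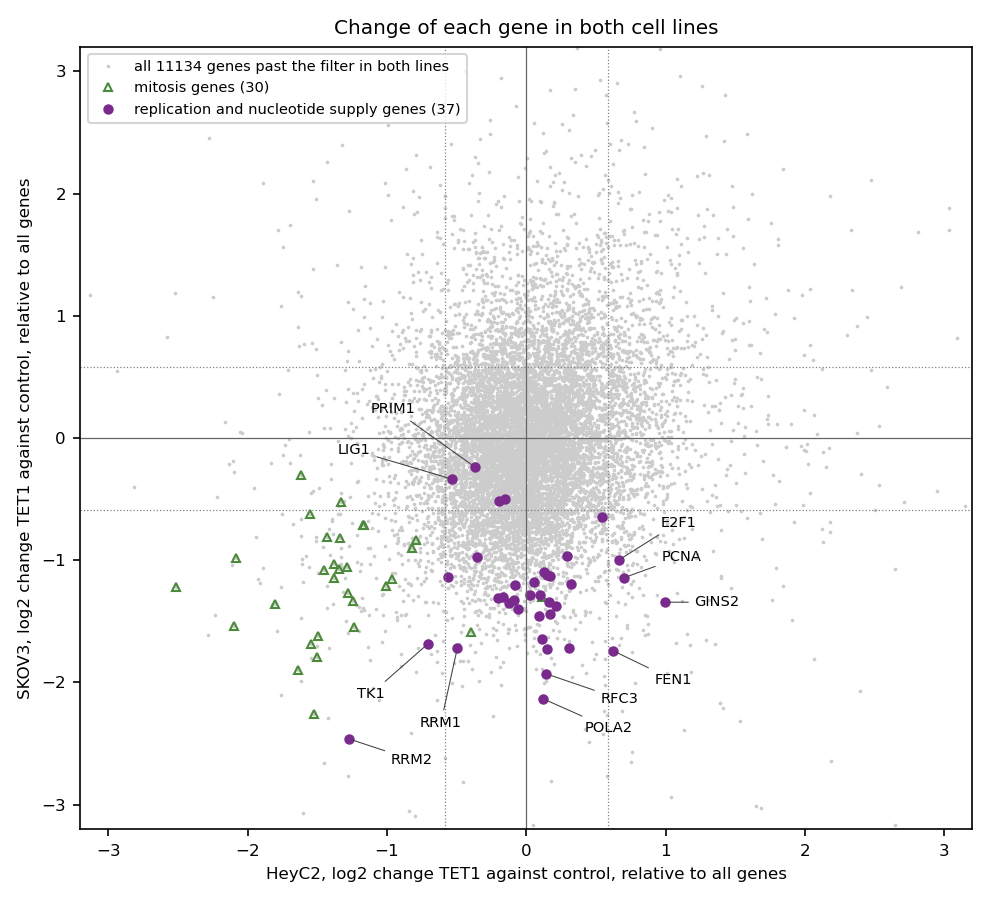
Relative log2 change of each gene in HeyC2 (horizontal) and SKOV3 (vertical), with grey points for the 11134 genes past the filter in both lines, purple circles for 37 members and green triangles for 30 mitosis genes. Dotted lines mark 1.5-fold and 42 genes lie beyond the axes at 3.2. The members form a band below 0 in SKOV3 that spreads to both sides of 0 in HeyC2, and 28 of the 30 mitosis genes lie left of the 1.5-fold line for HeyC2.

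Further genes of the pathway were also lower in SKOV3. Beside the counts of these and the following lists, 18.2% of all genes fell and 20.7% rose in SKOV3. In HeyC2, 9.17% fell and 12.5% rose. Of 42 other replication genes, 30 fell and 0 rose in SKOV3 (median -0.88), and 2 fell and 1 rose in HeyC2 (median -0.06). By mean change over both lines, here and in the lists that follow among genes past the filter in both, the lowest were ASF1B, TOP2A and RNASEH2A and the highest ORC4, ORC2 and MCM8. ASF1B, a histone chaperone, changed by -0.64 in HeyC2 and -2.15 in SKOV3. TOP2A, the topoisomerase that untangles DNA, changed by -1.33 and -1.06. MCM8, a helicase relative with a role in repair, changed by 1.06 and -0.70. These are the called members of that list in HeyC2. Of 35 other nucleotide supply genes, 15 fell and 4 rose in SKOV3 (median -0.42), and 3 fell and 1 rose in HeyC2 (median -0.10). Here NT5E and PAICS were among the lowest, and the highest were TYMP, TK2 and RRM2B. PAICS, an enzyme of purine synthesis, changed by 0.05 in HeyC2 and -1.71 in SKOV3. TK2, the mitochondrial thymidine kinase, changed by -0.25 and 1.11.

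Of 21 E2F and pocket protein genes, 18 passed the filter in HeyC2, where 2 fell and 2 rose (median 0.05), and 21 in SKOV3, where 13 fell and 4 rose (median -0.96). The lowest were LIN54, MYBL2 and E2F7 and the highest TFDP2, E2F5 and E2F6. MYBL2, an activator of cell cycle genes, was at 4.17 and 3.67 FPKM in HeyC2 and fell from 207 to 82.9 in SKOV3 (-1.5). TFDP2, a dimer partner of the E2F proteins, rose in both lines (0.83 in HeyC2 and 0.81 in SKOV3). Of 24 DNA repair genes, 22 passed the filter in HeyC2, where 0 fell and 1 rose (median 0.01), and 23 in SKOV3, where 13 fell and 1 rose (median -0.72). FANCI and RAD54L were among the lowest, and MSH6, NBN and PMS2 were highest. FANCI, a Fanconi anaemia pathway protein, changed by -0.45 in HeyC2 and -1.40 in SKOV3.

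The mitosis genes differed from the replication genes in HeyC2. Of 30 mitosis genes, 28 fell in HeyC2 (median -1.36) and 28 fell in SKOV3 (median -1.15), with 26 lower in both lines and 0 higher in either. The lowest were CCNA2, KIF20A and MKI67 and the highest ESPL1, NUF2 and CDK1. MKI67, the proliferation marker, fell by 2.10 in HeyC2 and by 1.54 in SKOV3. ESPL1, the protease that releases sister chromatids, was at 0.11 in HeyC2, and it and TTK, a spindle checkpoint kinase at -0.39, were the 2 that were not called there. The HeyC2 median was thus -1.36 for mitosis genes and 0.10 for the replication and nucleotide supply genes, and the SKOV3 medians were -1.15 and -1.31. No test of these differences was possible.

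**Figure D3:**
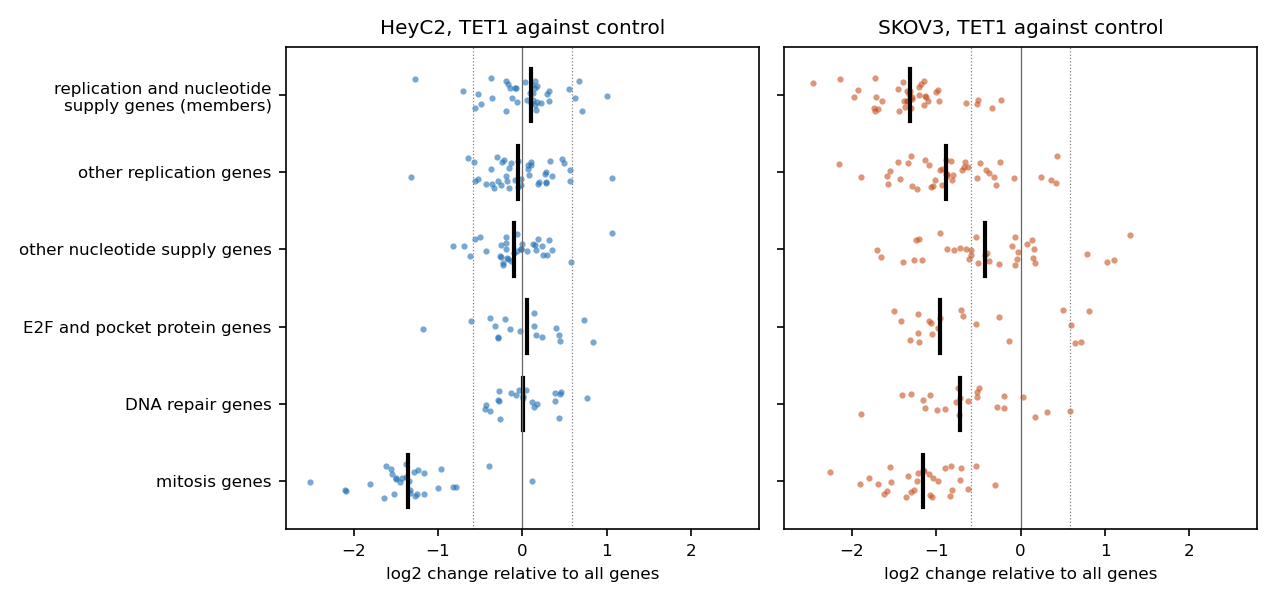
Relative log2 change of every gene of 6 lists past the filter, in HeyC2 (left) and SKOV3 (right), with 1 point per gene, a bar at the median and dotted lines at 1.5-fold. The members centre on 0.10 in HeyC2 and on -1.31 in SKOV3, while mitosis genes centre on -1.36 and -1.15.

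Promoter sequences were examined because the members moved together in SKOV3 and because E2F factors are known to control this group. In RefSeq windows of 300 bases (250 before to 50 after the start site, GRCh38.p14), 36 of 39 members had an entry, and MCM4, MCM5 and GINS4 did not. The E2F words TTTCCCGC, TTTGGCGC, TTTCGCGC and TTTGCCGC were searched on both strands, together with CCAAT and with TTTGAA, the CHR element word of mitotic promoters. An E2F word stood in 19 of 36 member promoters (52.8%), against 3.33% of all 27305 promoters and 5.74% of the 8517 promoters of genes past the filter in both lines. The CCAAT word stood in 21 of 36 (58.3%), against 35.7% of all promoters and 37.1% of those of genes past the filter. The CHR word stood in 1 of 36 (2.78%), that of RRM1, against 15.4% and 9.05%. Among 25 mitosis genes with an entry the order was reversed, with the CHR word in 17 (68%) and an E2F word in 2 (8%). The CCAAT word was in 21 (84%) of them. An E2F word stood in 35.3% of E2F and pocket protein and 33.3% of DNA repair promoters. The share was 21.2% for other replication genes and 6.90% for other nucleotide supply genes. For the CCAAT word, other replication genes were at 63.6%, above the members. The 120 bases before the start site are shown for the clamp and E2F1, which moved in opposite directions in the lines, for POLA2 and RRM2, which had the largest drops in SKOV3, and for MCM6, which was under the call. Letters are on the coding strand, 5′ to 3′, on GRCh38.p14, end at the base before the start site, and have E2F words in capitals.
PCNA (chr20:5126623-5126742, minus strand): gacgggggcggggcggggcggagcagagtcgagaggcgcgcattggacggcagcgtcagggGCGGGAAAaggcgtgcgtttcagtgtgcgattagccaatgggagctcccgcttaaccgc
POLA2 (chr11:65261842-65261961, plus strand): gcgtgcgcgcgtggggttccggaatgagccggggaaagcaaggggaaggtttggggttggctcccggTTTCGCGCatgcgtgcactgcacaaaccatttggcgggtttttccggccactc
E2F1 (chr20:33686386-33686505, minus strand): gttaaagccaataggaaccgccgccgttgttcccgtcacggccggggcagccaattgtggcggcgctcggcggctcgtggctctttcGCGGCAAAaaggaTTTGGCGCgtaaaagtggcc
MCM6 (chr2:135876444-135876563, minus strand): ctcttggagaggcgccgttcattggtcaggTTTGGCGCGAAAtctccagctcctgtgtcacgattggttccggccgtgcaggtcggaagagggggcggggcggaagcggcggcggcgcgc
RRM2 (chr2:10122619-10122738, plus strand): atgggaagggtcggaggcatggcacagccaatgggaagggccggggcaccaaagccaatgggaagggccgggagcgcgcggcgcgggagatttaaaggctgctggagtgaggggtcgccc

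These upstream stretches differ in how they carry the words. In PCNA a single reverse word spans bases -59 to -52 from the start site, and in POLA2 a single forward word spans -53 to -46. E2F1 carries 2 words, at -33 to -26 and -20 to -13. In MCM6 the capitals are 2 words that overlap on opposite strands, from -90 to -79, and a further such pair lies before the stretch shown, at -152 to -141. RRM2 has no E2F word in its window and 3 CCAAT words, at -123 to -119, -93 to -89 and -66 to -62. In SKOV3 the median change was similar with and without an E2F word, and in HeyC2 it was higher with one. The 19 members with a word had a median of 0.14 in HeyC2 and -1.32 in SKOV3, and the 17 without had -0.08 and -1.29. These groups include POLE2 (with) and MCM10 (without), which did not pass the filter in HeyC2. Only the listed words were searched, so close variants count as no word. MCM6 with 4 words was under the call in SKOV3, and FEN1 with none fell by 1.74. A match is a description of letters and not evidence that a factor binds there.

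**Figure D4:**
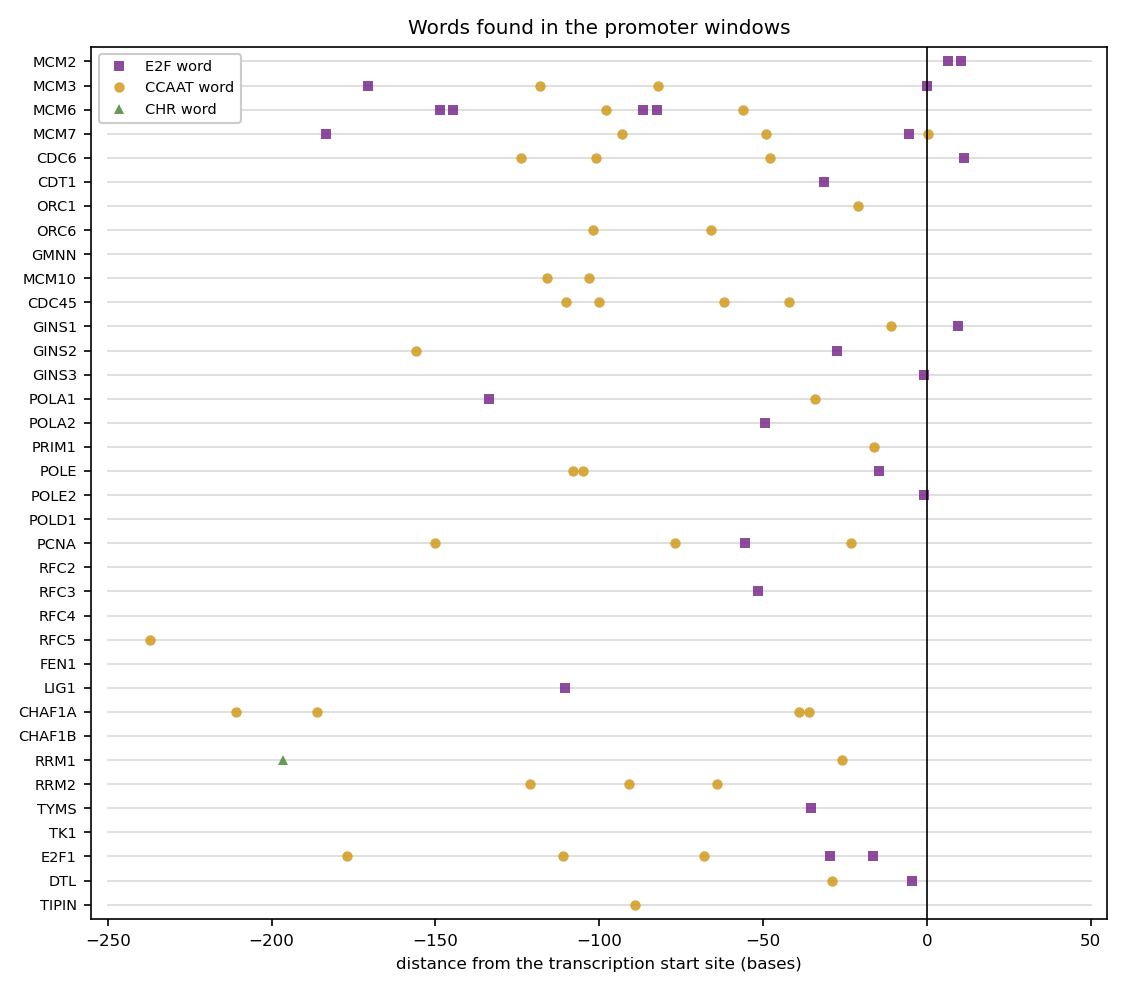
Position of each E2F word (purple squares), CCAAT word (yellow circles) and CHR word (green triangle) in the promoter window of 36 members, as distance in bases from the start site, from 250 before to 50 after it. E2F words lie in 19 windows and CCAAT words in 21, with the single CHR word in RRM1.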

How the data were processed

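RNA sequencing data of 4 libraries were used, 1 for each of HeyC2 control, HeyC2 TET1, SKOV3 control and SKOV3 TET1. The deposited values are FPKM. The authors sequenced TruSeq libraries in paired-end mode, aligned the reads to hg19 (GRCh37) with Bowtie2 2.2.6 and quantified genes with RSEM 1.2.17. The gene annotation, filters and read totals are not given in the sources used here. The values of each TET1 column were multiplied by 1 factor that sets GAPDH to its control, which was recovered from the value steps (100% of distinct values below 40 FPKM lay on the grid) and divided out.

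The members and gene lists were chosen with earlier results of these data known. Changes used a pseudocount of 1, a minimum mean of 1 FPKM per line, and centring on the median of all genes. No test was made, since each group has 1 library. All 39 members are named with their values. Of each further list (other replication, other nucleotide supply, E2F and pocket protein, mitosis and DNA repair genes) the 3 lowest and 3 highest by mean change over both lines, among genes past the filter in both, are named, except genes that are not reported here. Cell type markers are reported by their levels.

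Depth was estimated from the spacing of small FPKM values of genes with 1 transcript, and gives counting errors that are approximate and cover counting only. GENCODE on GRCh37 gave coordinates, transcript length and GC content by symbol (22123 of 26506 symbols and all 39 members linked), and promoters from RefSeq on GRCh38.p14, matched by symbol. Alternatives were pseudocounts of 0.1 and 0.01, no filter or a mean of at least 5 FPKM, the deposited scale with and without centring, no centring, upper-quartile scaling, TPM, calls at 2-fold and at 1.2-fold, and correction for GC content and length in 20 bins each. The calculations were tested on simulated data and used Python 3.11.15, numpy 2.4.6, pandas 2.3.3 and matplotlib 3.10.9.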

Additional observations from a re-analysis of the deposited data

Results flagged for a closer look

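The following 4 members moved by at least 1.5-fold in opposite directions in the lines, higher in HeyC2 TET1 and lower in SKOV3 TET1, and are listed with the SKOV3 change minus the HeyC2 change on the log2 scale. The difference between the lines was not tested, since each condition has 1 library. These are the only members called higher in HeyC2, 4 of 37, which is close to the 12.5% of all genes called higher there. The rise of GINS2 rests on an estimated 31 and 77 fragments. That of E2F1 was under the call after correction for GC content and transcript length. For GINS2, a subunit of the helicase activator, the difference was -2.34. For PCNA, the sliding clamp, it was -1.84. For the flap nuclease FEN1 it was -2.36. For the transcription factor E2F1 it was -1.66.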

How the results depend on the processing

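With 1 library per condition, no value has a replicate check, and the weak members in HeyC2 rest on few fragments. Of 749 member values recomputed under the alternatives, 630 stayed within 1.96 counting errors of the reported value, 117 moved further, and 2 reversed. A reversal was counted only where the reported change was at least 1.5-fold, so smaller changes that switched sign are among the 630 and the 117. Examples on the deposited scale with no centring were MCM5 in HeyC2 (-0.36 to 1.36) and PRIM1 in SKOV3 (-0.24 to 0.36). The counted reversals were RRM2 (0.33) and TK1 (1.01) in HeyC2, on the deposited scale with no centring. There the GAPDH factor by construction lifts every gene. On that scale the HeyC2 median was 1.54, with 0 members lower, 38 higher and 0 below the reference, the SKOV3 median was -0.71, and 0 members were lower in both lines. The deposited scale with centring gave 4 members lower in HeyC2 and 4 in both lines, including MCM10 and POLE2, which then pass the filter. With the factor divided out, their HeyC2 changes were -0.08 and 0.05. On the deposited scale the pseudocount by construction pulls weak genes down against the median. The SKOV3 median was -1.12 with no centring and -1.09 in TPM. A 2-fold threshold gave 1 member lower and 0 higher in HeyC2 and 1 lower in both. A 1.2-fold threshold gave 7 lower and 8 higher in HeyC2 and 6 lower in both. The HeyC2 quartiles of all genes, -0.28 and 0.30, already lay beyond 1.2-fold, so these HeyC2 counts do not stand above the background. The shares of all genes called at 2-fold, at 1.2-fold and on the deposited scale were not computed. Where values stayed centred, the members' median ran from -0.07 to 0.12 in HeyC2, so its sign depends on the scale, and from -1.38 to -1.22 in SKOV3. Apart from the effects of construction named here, the cause of each shift was not tested.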
